A study of Mus musculus with 6 samples.

Results

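The transcripts described here encode 9 G protein-coupled receptors that set how much insulin a beta cell releases at a given glucose level. They are Glp1r, Gipr, Gcgr, Gpr119, Ffar1, Chrm3, Adra2a, Sstr3 and Galr1, taken by gene symbol from the 53379 genes counted in each library. RNA-seq was carried out on Min6 cells, an insulinoma line from the mouse that secretes insulin and stands in for beta cells. Both groups carried a lentiCRISPR v2 vector, which delivers Cas9 and a guide RNA (gRNA). One group of 3 libraries received a JunD gRNA, which targets the gene of the AP-1 transcription factor JunD, and the other 3 received a Rosa26 gRNA, aimed at a locus used as the negative control. All cells were at passage 28 and were harvested 8 days after transduction, following 30 hours under glucolipotoxic conditions, a stress of high glucose and fatty acid. Stressed cells without a vector, and unstressed cells, were not analysed here. The labels do not state whether replicates came from separate cultures or transductions. Each p-value therefore rests on the spread among these 6 libraries, or on fewer where a library is left out. That spread may be technical. The position of the JunD gRNA and whether cells were cloned are left unstated by the labels.

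Each of these receptors passes its signal to a heterotrimeric G protein. Receptors coupled to Gs (the incretin receptors, the glucagon receptor and Gpr119) raise cAMP, which amplifies glucose-stimulated insulin release through protein kinase A and Epac. Receptors coupled to Gq (the fatty acid receptor Ffar1 and the muscarinic receptor Chrm3) activate phospholipase C and release calcium from stores. Receptors coupled to Gi/o (for adrenaline, somatostatin and galanin) lower cAMP and restrain exocytosis.

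The libraries held between 41071566 and 50024931 gene counts, and all 9 receptors passed the filter on low counts. The lowest count of any receptor in any library was 147, for Gcgr, where counting error alone is 8.25%; for Glp1r it is at most 1.22%. Levels are given as CPM, the count divided by the library's total and scaled to 1000000 counts, with SD over 3 libraries. Jund itself stood at 22.6, 25.1 and 26.9 CPM with the JunD gRNA, against 39.3, 34.5 and 30.4 CPM with the Rosa26 gRNA, so the groups did not overlap. Its log2 fold change was -0.47 ± 0.11 (SE; edgeR adjusted p = 0.417), and -0.38 ± 0.08 (0.00773) without Rosa26 gRNA replicate 1. Some other fits on all 6 libraries put Jund under an adjusted p of 0.05. They were DESeq2 (0.0427), limma-voom with sample weights (0.00722) and edgeR with no count filter (0.0455). Of 22 alternative settings, 15 kept both its direction and an adjusted p above 0.05. A read count over the gene does not show whether its DNA was edited. Beta cell markers summed to between 76000 and 81900 CPM in the JunD gRNA libraries and to between 42600 and 77600 CPM in the Rosa26 gRNA libraries, and all 12 passed the filter. Of the stromal, vascular and immune markers, Adgre1 and Cd3e were at 0 in all libraries, and the 12 together reached at most 7.48 CPM with the JunD gRNA and 9.84 CPM with the Rosa26 gRNA. Acinar and ductal markers summed to between 539 and 553 CPM with the JunD gRNA and to between 404 and 498 CPM with the Rosa26 gRNA; the acinar genes Prss2 and Ptf1a were at 0. Other islet hormone and endocrine markers summed to between 4660 and 4730 CPM with the JunD gRNA and to between 2650 and 4810 CPM with the Rosa26 gRNA. Rosa26 gRNA replicate 1 stood apart from the other 5 libraries, at 62.1 on a first principal component that held 45.8% of the variance, where the others lay between -22.5 and -6.09. It had the lowest sum of beta cell markers, 42600 CPM. Of the 9 receptors it had the lowest level of the 6 libraries for 4 (Glp1r, Gipr, Gpr119 and Adra2a) and the highest for 3 (Ffar1, Chrm3 and Galr1). Without that library, 6 of the 12 beta cell markers were called higher and 1 lower. Of the 2 acinar and ductal markers tested 1 was called higher (Krt7), and of the 8 other islet markers tested 1 was called lower (Ppy, pancreatic polypeptide). Over all genes 1.45% were called higher and 1.4% lower. The part of these markers in the receptors' values was not tested. The difference of each receptor is given with that library and without it. The fit without it compares 3 JunD gRNA libraries with only 2 Rosa26 gRNA libraries, and was chosen with earlier results of these data known.

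Glp1r had the smallest p among these receptors in both fits: its transcript was 12.2% more abundant in JunD gRNA cells without the library that stood apart, and Adra2a, which acts in the opposite direction on cAMP, was higher by a similar proportion. In these bulk libraries, fewer cells with a transcript and less of it in each cell cannot be told apart. With all 6 libraries 0 of the 9 receptors passed the test across genes (edgeR with a quasi-likelihood fit, p adjusted by Benjamini-Hochberg, under 0.05), where 0.0% of 17767 genes passed. Of the 9, limma-voom and DESeq2 also called 0; over all genes, limma-voom called 0 and DESeq2 67. With sample weights limma-voom called 1 of the 9, Glp1r, beside 1.65% of all genes (0.737% higher and 0.912% lower). At an unadjusted p under 0.05 there were 3 of the 9, namely Glp1r, Adra2a and Gpr119, all higher, beside 11.9% of all genes in both directions and 5.41% higher. Without Rosa26 gRNA replicate 1, Glp1r and Adra2a rose, 0 receptors fell and 7 did not pass, where 2.86% of 18296 genes passed, 1.45% as higher and 1.4% as lower. DESeq2 and limma-voom, run on the same counts, each called 2 of the 9 without that library, beside 488 and 588 of the 18296 genes. After a correction of each library's trends with GC content and transcript length, 1 of the 9 passed, Glp1r, beside 3.15% of all genes (2.0% higher and 1.15% lower). Across the 6 libraries the CPM ranges were apart for 4 receptors that were higher with the JunD gRNA (Glp1r, Gipr, Adra2a and Sstr3), beside 11.6% of all genes, and for 1 that was lower (Galr1), beside 12.8%. The median log2 fold change over the 9 was 0.18 with 6 libraries and 0.12 without Rosa26 gRNA replicate 1, where the medians over all genes tested were -0.0064 and -0.0030. The fold change was positive for 6 of the 9 with 6 libraries and for 8 of the 9 without that library, beside 48.9% and 49.2% of all genes. For single genes, "rose" and "fell" refer to edgeR calls without Rosa26 gRNA replicate 1, and SE to the log2 fold change.

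**Figure D1:**
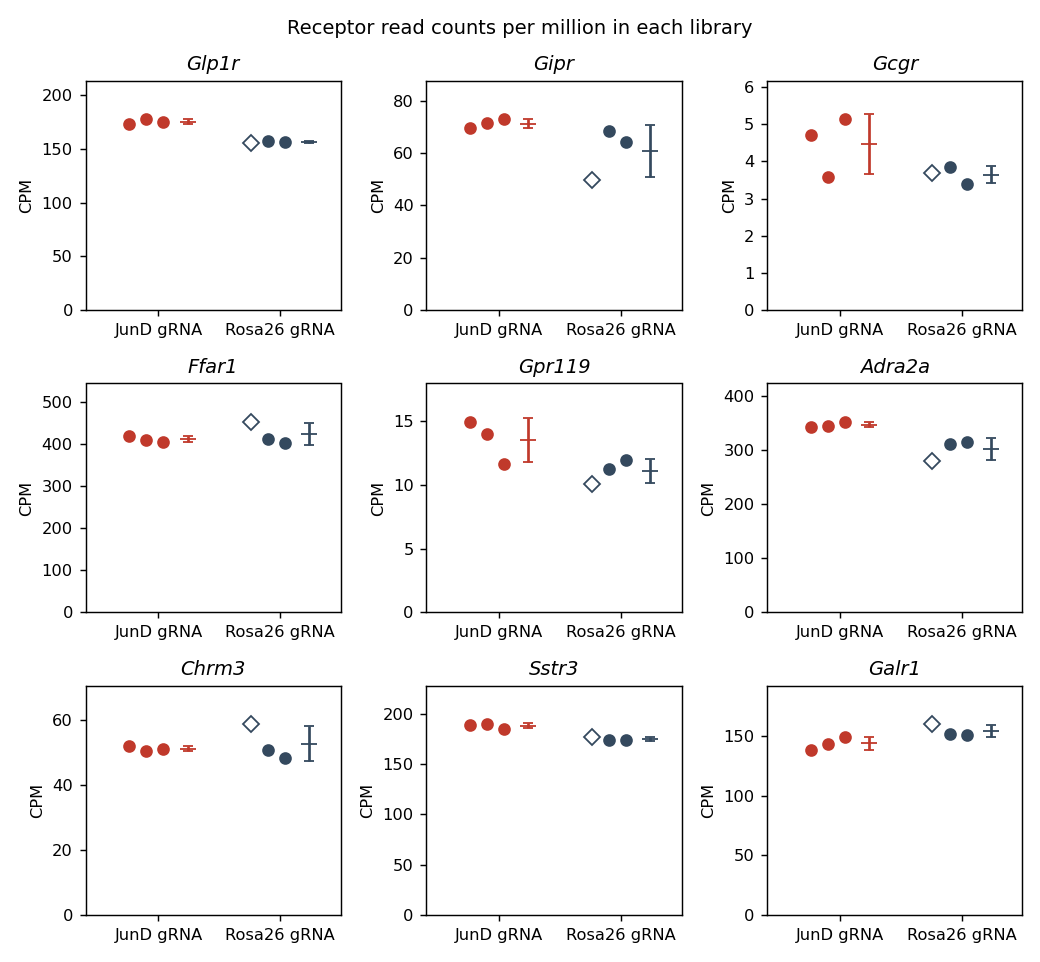
CPM of each receptor (vertical axes, from 0) in every library, with JunD gRNA libraries in red on the left and Rosa26 gRNA libraries in dark blue on the right; bars are mean and SD of 3 libraries and the open diamond is Rosa26 gRNA replicate 1. Glp1r lies between 174 and 178 CPM with the JunD gRNA and between 155 and 158 CPM with the Rosa26 gRNA, whereas Ffar1 and Chrm3 overlap between the groups.

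Glp1r encodes the receptor for GLP-1, the intestinal incretin hormone, and is the target of the drugs exenatide and semaglutide. The gene (ENSMUSG00000024027.7) occupies 30901817 to 30940791 of chromosome 17, plus strand (GRCm38, the mm10 build, as for all genes here), with 13 exon blocks. Its level was 174, 178 and 175 CPM in the JunD gRNA libraries, against 155, 158 and 156 CPM in the Rosa26 gRNA libraries. All JunD gRNA libraries were above all Rosa26 gRNA libraries, and Rosa26 gRNA replicate 1 lay close to its own group here. Glp1r rose by 0.17 ± 0.04 (SE) on the log2 scale, which is 12.2% (edgeR adjusted p = 0.0302). With all 6 libraries its log2 fold change was 0.18 ± 0.06 (SE; edgeR adjusted p = 0.417). After the GC and length correction it was 0.20 ± 0.04 without Rosa26 gRNA replicate 1 (edgeR adjusted p = 0.00167) and 0.24 with 6 libraries (0.176).

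JunD binds AP-1 sites and the cAMP response element, so the stretch before the annotated gene is shown for Glp1r, the receptor with the smallest p, from RefSeq (GRCm38.p6), at chr17:30901617-30901816 (plus strand). The 200 bases are 75.0% G and C.
Glp1r: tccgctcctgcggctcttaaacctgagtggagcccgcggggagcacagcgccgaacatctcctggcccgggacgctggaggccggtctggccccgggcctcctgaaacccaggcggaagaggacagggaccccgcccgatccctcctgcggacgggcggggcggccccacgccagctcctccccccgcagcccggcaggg

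The AP-1 site (TGANTCA) and the full cAMP response element (TGACGTCA), each searched on both strands from 250 bases before to 50 bases after the start, had no match in the 8 RefSeq promoters found for 7 of the receptors (Glp1r, Gcgr, Ffar1, Gpr119, Adra2a, Chrm3 and Sstr3). They occur in 7.81% and 1.79% of the 32851 promoters in the table. The shorter core TGACG, which is contained in the full element, had a match in 1 promoter each of Gpr119, Adra2a and Sstr3 and occurs in 20.8% of all promoters. These 3 windows are shown because they are the matches found, with the core in capitals, from RefSeq (GRCm38.p6) at chrX:48674629-48674658 (minus strand), chr19:54045178-54045207 (plus strand) and chr15:78544337-78544366 (minus strand).
Gpr119: agacaggaagccTGACGaaaagtccctatc
Adra2a: ccacgtgggggcTGACGccggctgctcggc
Sstr3: ggagatggggggTGACGtaccaggtgcggg
A match is a string of letters and not a measured binding site. The 3 cores lie before a RefSeq start, but those of Adra2a and Sstr3 are inside the gene as GENCODE draws it. Of these 3 genes Adra2a rose, and Gpr119 and Sstr3 did not pass.

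Gipr, the receptor for the other incretin, GIP, did not pass. The gene (ENSMUSG00000030406.7) occupies 19156061 to 19166127 of chromosome 7, minus strand, with 12 exon blocks. It stood at 69.5, 71.3 and 72.9 CPM with the JunD gRNA, against 49.5, 68.5 and 64.3 CPM with the Rosa26 gRNA. The groups did not overlap, but Rosa26 gRNA replicate 1 was far below the rest of its group. Its log2 fold change was 0.24 ± 0.12 (SE) with 6 libraries (edgeR adjusted p = 0.429) and 0.11 ± 0.05 without that library (0.328; 95% interval from -0.002 to 0.21).

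Gcgr, the glucagon receptor, was the least abundant of the 9 and did not pass. The gene (ENSMUSG00000025127.15) occupies 120530699 to 120538986 of chromosome 11, plus strand. Its counts were 197, 147 and 255 with the JunD gRNA, against 160, 192 and 162 with the Rosa26 gRNA. In CPM this was 4.71, 3.58 and 5.14 with the JunD gRNA, against 3.69, 3.84 and 3.39 with the Rosa26 gRNA. JunD gRNA replicate 2 lay inside the Rosa26 gRNA range, so the groups overlapped. Its log2 fold change was 0.32 ± 0.17 (SE) in both fits (edgeR adjusted p = 0.434 with 6 libraries and 0.369 without Rosa26 gRNA replicate 1), and ran from 0.20 to 0.46 as single libraries were left out.

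Gpr119, a receptor for oleoylethanolamide and related lipid amides that is found in beta cells and in enteroendocrine cells, did not pass. The gene (ENSMUSG00000051209.3) occupies 48667979 to 48674478 of chromosome X, minus strand. Its level was 14.9, 14 and 11.6 CPM with the JunD gRNA, against 10.04, 11.2 and 11.96 CPM with the Rosa26 gRNA. JunD gRNA replicate 3 lay below Rosa26 gRNA replicate 3. With 6 libraries the log2 fold change was 0.30 ± 0.12 (SE; edgeR adjusted p = 0.417), and without Rosa26 gRNA replicate 1 it was 0.22 ± 0.10 (0.293).

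Neither Gq-coupled receptor passed, and the groups overlapped for both. Ffar1, also called GPR40, is activated by long-chain fatty acids. The gene (ENSMUSG00000044453.5) is 1 exon block, 30857390 to 30861564 of chromosome 7, minus strand. It stood at 419, 409 and 406 CPM with the JunD gRNA, against 453, 413 and 404 CPM with the Rosa26 gRNA. The JunD gRNA values lay within the Rosa26 gRNA range. The log2 fold change was -0.03 ± 0.07 (SE; 95% interval from -0.17 to 0.12; edgeR adjusted p = 0.869) with 6 libraries and 0.01 ± 0.04 (95% interval from -0.06 to 0.09; 0.902) without Rosa26 gRNA replicate 1.

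Chrm3, the muscarinic receptor through which acetylcholine potentiates insulin release, did not pass. The gene (ENSMUSG00000046159.16) spans 9875486 to 10360847 of chromosome 13, minus strand. It stood at 52.0, 50.4 and 51.0 CPM with the JunD gRNA, against 58.7, 50.8 and 48.4 CPM with the Rosa26 gRNA. Rosa26 gRNA replicate 1 was the highest of the 6, and without it the sign of the difference turned. For Chrm3 the log2 fold change was -0.02 ± 0.08 (SE; 95% interval from -0.21 to 0.16; edgeR adjusted p = 0.901) with 6 libraries and 0.05 ± 0.06 (95% interval from -0.07 to 0.16; 0.750) without that library.

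Among the receptors that restrain secretion, Adra2a and Sstr3 were higher and Galr1 lower in the JunD gRNA libraries, and Adra2a passed the test. Adra2a encodes the alpha-2A adrenoceptor, through which adrenaline and noradrenaline inhibit insulin release. The gene (ENSMUSG00000033717.5) is 1 exon block, 54044151 to 54048982 of chromosome 19, plus strand. Its level was 343, 345 and 352 CPM with the JunD gRNA, against 279, 311 and 315 CPM with the Rosa26 gRNA. The groups did not overlap, and Rosa26 gRNA replicate 1 was the lowest library. Adra2a rose by 0.15 ± 0.04 (SE) on the log2 scale, or 11.1% (edgeR adjusted p = 0.0304), and with all 6 libraries its log2 fold change was 0.22 ± 0.07 (0.417). After the correction for GC content and length without Rosa26 gRNA replicate 1 it was 0.10 ± 0.03 and did not pass (edgeR adjusted p = 0.084). Its longest transcript has 58.6% G and C, where that of Glp1r has 50.1%.

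Sstr3, a somatostatin receptor found on primary cilia, did not pass. The gene (ENSMUSG00000044933.2) occupies 78537008 to 78544685 of chromosome 15, minus strand. It stood at 189, 189.5 and 185 CPM with the JunD gRNA, against 177, 173 and 174 CPM with the Rosa26 gRNA. The groups did not overlap and the spread within each was small. For Sstr3 the log2 fold change was 0.12 ± 0.06 (SE) with 6 libraries (edgeR adjusted p = 0.427) and 0.12 ± 0.04 without Rosa26 gRNA replicate 1 (0.124). After the correction for GC content and length it was 0.0064 with 6 libraries and 0.08 without that library.

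Galr1 encodes a receptor for galanin, a neuropeptide that inhibits insulin release. It was the one receptor with every JunD gRNA library below every Rosa26 gRNA library. The gene (ENSMUSG00000024553.7) is on chromosome 18. It stood at 139, 144 and 149 CPM with the JunD gRNA, against 160.2, 152 and 151 CPM with the Rosa26 gRNA. The groups did not overlap, with JunD gRNA replicate 3 just below Rosa26 gRNA replicate 3, and Rosa26 gRNA replicate 1 was the highest. For Galr1 the log2 fold change was -0.08 ± 0.06 (SE; 95% interval from -0.23 to 0.06; edgeR adjusted p = 0.535) with 6 libraries and -0.07 ± 0.04 (0.501) without Rosa26 gRNA replicate 1, and Galr1 did not pass in either.

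**Figure D2:**
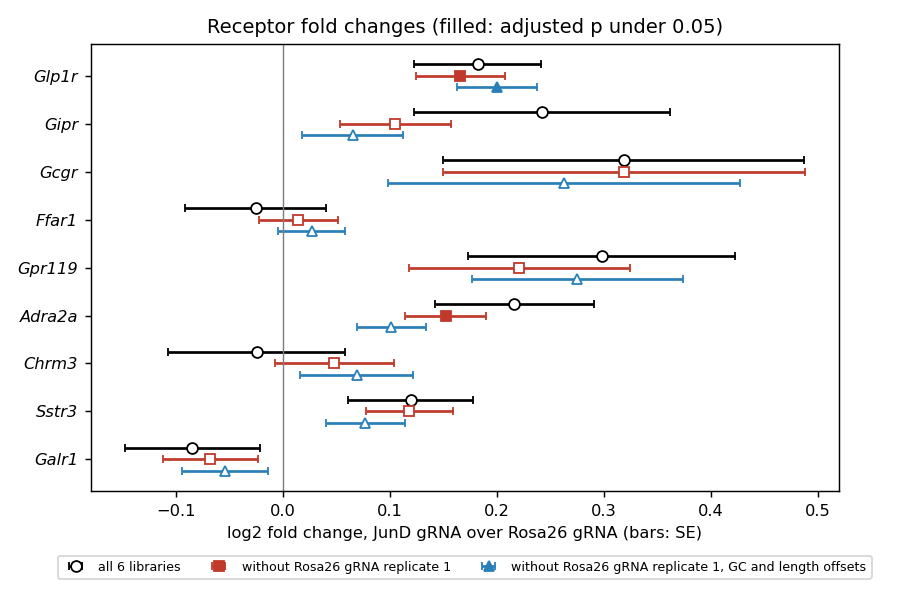
Log2 fold change of each receptor, JunD gRNA over Rosa26 gRNA (horizontal axis, bars are SE), with all 6 libraries (black circles), without Rosa26 gRNA replicate 1 (red squares) and without that library after correction for GC content and length (blue triangles); filled symbols passed at an adjusted p under 0.05. Glp1r passed in both fits without that library and Adra2a in the uncorrected one, while Ffar1 and Chrm3 lie near 0 and Galr1 below it.

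Ratios of 2 receptors within a library do not depend on how libraries are scaled, and 5 are given as a description, chosen after the values were seen and not tested. The ratio of Glp1r to Galr1 counts was 1.25, 1.23 and 1.18 in the JunD gRNA libraries, against 0.969, 1.04 and 1.03 in the Rosa26 gRNA libraries. Adra2a to Galr1 was 2.47, 2.40 and 2.36 with the JunD gRNA, against 1.74, 2.05 and 2.09 with the Rosa26 gRNA. Sstr3 to Galr1 was 1.36, 1.32 and 1.24 with the JunD gRNA, against 1.11, 1.14 and 1.15 with the Rosa26 gRNA. These 3 ratios were higher in every JunD gRNA library than in any Rosa26 gRNA library. That follows from the genes chosen and adds no separate evidence. In CPM, Glp1r, Adra2a and Sstr3 were each higher in every JunD gRNA library, and Galr1 was lower. The ratio of the incretin receptors, Glp1r to Gipr, was 2.50, 2.49 and 2.40 with the JunD gRNA and 3.14, 2.30 and 2.42 with the Rosa26 gRNA, and overlapped. Glp1r to Adra2a, the stimulating to the inhibiting receptor that both rose, averaged 0.506 ± 0.0088 with the JunD gRNA and 0.520 ± 0.033 with the Rosa26 gRNA (SD, n = 3 each), which also overlapped.

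**Figure D3:**
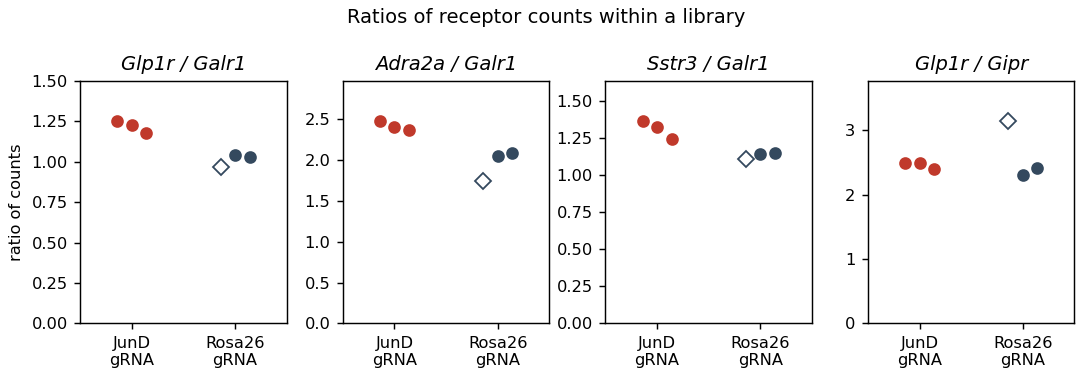
Ratio of the counts of 2 receptors within each library (vertical axes, from 0), JunD gRNA libraries in red on the left and Rosa26 gRNA libraries in dark blue on the right; the open diamond is Rosa26 gRNA replicate 1. The 3 ratios over Galr1 lie apart between the groups, which follows from the CPM of the genes chosen. Glp1r over Gipr overlaps, with Rosa26 gRNA replicate 1 at 3.14.

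Levels were compared between receptors as CPM per kb of merged exon, averaged over the 6 libraries. Ffar1 was the most abundant at 99.98 CPM per kb, within the top 2.31% of the genes tested, followed by Adra2a at 67.1, Galr1 at 49.9, Sstr3 at 42.0, Glp1r at 28.6, Gipr at 19.0, Chrm3 at 8.29, Gpr119 at 5.42 and Gcgr at 1.55 CPM per kb. The ranges of neighbours in this order did not overlap for any pair, so the order was the same in all 6 libraries. The closest neighbours were Galr1 and Sstr3, which differed 1.19-fold, and the widest gap was that of Gpr119 over Gcgr, 3.50-fold. Measured against the longest transcript in place of merged exons, Chrm3 stood at 11.96 CPM per kb and stayed between Gipr and Gpr119. The Gi/o-coupled receptors took 3 of the 4 highest places, and both incretin receptors stood in the middle.

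Most receptors led their family. Glp1r stood above every other class B peptide receptor listed. Adra2a stood alone among the alpha-2 adrenoceptors, where Adra2b had 20 counts over the 6 libraries and Adra2c had 0. Among the somatostatin receptors, Sstr3 stood at 43.5 ± 0.58 CPM per kb with the JunD gRNA and 40.5 ± 0.49 with the Rosa26 gRNA (SD, n = 3 each), 3.27-fold above Sstr5 over all libraries; Sstr1 stood at 1.05 CPM per kb, and Sstr2 and Sstr4 at 0.139 and 0.0159. Galr1 was followed by Galr3 at 26.5 and Galr2 at 4.72 CPM per kb. Ffar1 stood 3.16-fold above Ffar2 and 3.96-fold above Ffar3, the receptors for short-chain fatty acids, and Ffar4, the other long-chain fatty acid receptor, had 1.14 CPM per kb. Per kb of merged exon, Chrm3 shared its level with Chrm4, a Gi/o-coupled muscarinic receptor at 8.53 CPM per kb, while Chrm1 and Chrm5 had 0 counts. That match depends on the length used, as Chrm3 stood at 11.96 CPM per kb of its longest transcript. Among the peptide receptors of class B, Vipr1, a receptor for VIP and PACAP, stood at 19.7 CPM per kb, near Gipr, Adcyap1r1 at 0.0389, and Glp2r had 0 counts. For genes with 0 counts, the limit that 3 counts would give is at most 0.073 CPM per library, covering counting error only.

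Of the other islet receptors in the list of paralogs, 3 of 37 tested rose and 0 fell, beside 1.45% and 1.4% of all genes. Those that rose were Crhr1, Sstr5 and Galr3. Crhr1, a Gs-coupled receptor for corticotropin-releasing hormone, was at 51.4, 49.0 and 52.3 CPM with the JunD gRNA, against 40.9, 43.2 and 42.7 CPM with the Rosa26 gRNA, and rose by 0.25 ± 0.06 (SE; edgeR adjusted p = 0.0196). Sstr5 rose by 0.24 ± 0.06 (0.0406) and Galr3 by 0.26 ± 0.07 (0.043). With the GC and length correction Sstr5 and Galr3 no longer passed (edgeR adjusted p = 0.0723 and 0.353), and Crhr1 did (0.043). The same correction called 2 of the list lower, Cckbr, a cholecystokinin receptor (log2 fold change -0.22; edgeR adjusted p = 0.00816), and Adora2a, an adenosine receptor (-0.29; 0.0452). Its balance was then 1 higher and 2 lower, beside 2.0% and 1.15% of all genes, against 3 higher and 0 lower before it. Crhr1, Sstr5 and Galr3 had log2 fold changes of 0.28, 0.32 and 0.42 in the fit on 6 libraries. Gpr27, an orphan receptor, had 0.31 there, against 0.27 without Rosa26 gRNA replicate 1. Of the 34 genes of the list tested with 6 libraries, 0 passed in edgeR. At an unadjusted p under 0.05 there were 6 of the 34, beside 11.9% of all genes. The median of the list was 0.05 with 6 libraries and 0.01 without Rosa26 gRNA replicate 1.

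Downstream of the receptors, the genes that changed included Gnas and Prkaca. Of 24 tested G protein subunits 2 rose and 0 fell, beside 1.45% and 1.4% of all genes. Gnas, whose locus encodes the Gs alpha subunit and several imprinted transcripts that a gene-level count cannot separate, was at 446, 432 and 469.8 CPM with the JunD gRNA, against 333, 399.6 and 380.1 CPM with the Rosa26 gRNA, and rose by 0.21 ± 0.04 (SE; edgeR adjusted p = 0.00553). It also passed after the GC and length correction (0.00434). Gnb2, a beta subunit, rose by 0.16 ± 0.04 (0.0426) but not after that correction (0.21). With all 6 libraries the log2 fold changes were 0.29 for both. Gna13, of the G12/13 family, had -0.21 with 6 libraries and -0.13 without Rosa26 gRNA replicate 1, and Gnai2, a Gi subunit, had 0.16 and 0.08. Neither passed. Of 20 adenylyl cyclases and cAMP phosphodiesterases 0 were called by edgeR, DESeq2 or limma-voom without Rosa26 gRNA replicate 1. These called 523, 488 and 588 of 18296 genes. With 6 libraries 1 of the 20 had an unadjusted p under 0.05 in edgeR, beside 11.9% of all genes. The lowest p with 6 libraries belonged to Pde3a, Pde3b, Adcy1 and Pde4d. Their log2 fold changes were -0.46, -0.20, -0.19 and -0.21 with 6 libraries and -0.30, -0.09, -0.08 and -0.15 without Rosa26 gRNA replicate 1.

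Of 26 cAMP effectors and CREB regulators 1 rose and 0 fell, beside 1.45% and 1.4% of all genes. Prkaca, the catalytic alpha subunit of protein kinase A, was at 124.2, 123 and 124.3 CPM with the JunD gRNA, against 104, 112 and 109.7 CPM with the Rosa26 gRNA, and rose by 0.16 ± 0.04 (SE; edgeR adjusted p = 0.0443). With 6 libraries its log2 fold change was 0.20 (0.417). The kinase inhibitor Pkig had 0.37 with 6 libraries and 0.24 without Rosa26 gRNA replicate 1, and its relative Pkia had -0.35 and -0.17. Sik2, a kinase that restrains CREB coactivators, had -0.29 and -0.19. None of these 3 passed, and leaving out that library moved each by over 1.5 times. Of 12 transcripts known to respond to cAMP, 0 rose and Pcsk1, the prohormone convertase, fell by 0.12 ± 0.03 (0.0432) but not after the GC and length correction (0.761), where with 6 libraries its sign turned (0.02). Pcsk1 had -0.20 with 6 libraries and no correction. Ppargc1a, Rgs2 and Nr4a3 had -0.52, -0.19 and -0.24 with 6 libraries and -0.32, -0.16 and -0.18 without Rosa26 gRNA replicate 1, and did not pass. The median over these 12 was -0.01 with 6 libraries and -0.09 without that library, beside 0.18 and 0.12 for the 9 receptors.

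Of 19 genes of the Gq arm 0 were called by edgeR, DESeq2 or limma-voom without Rosa26 gRNA replicate 1. These called 523, 488 and 588 of 18296 genes. With 6 libraries 1 of the 19 had an unadjusted p under 0.05 in edgeR, beside 11.9% of all genes. Plcb1, a phospholipase C that Gq activates, had a log2 fold change of -0.26 with 6 libraries and -0.19 ± 0.07 without Rosa26 gRNA replicate 1 (SE; edgeR adjusted p = 0.171). The diacylglycerol kinases Dgkz and Dgkg had 0.14 and -0.16 with 6 libraries, and 0.09 and -0.04 without that library. Unc13b, a priming factor of exocytosis, had -0.19 and -0.12. Leaving out that library moved Dgkz, Dgkg and Unc13b by over 1.5 times. Arrestins, receptor kinases and RGS proteins end G protein signals. Of 25 tested genes in their list, which also held Gpsm1 and other modulators, 1 fell and 0 rose. Over all genes 1.4% fell and 1.45% rose. Rgs4, which speeds the turn-off of Gi and Gq, was at 194, 202.7 and 198 CPM with the JunD gRNA, against 219, 229.5 and 226 CPM with the Rosa26 gRNA, and fell by 0.19 ± 0.04 (0.0082), with a log2 fold change of -0.17 with 6 libraries (0.417). Rgs4 passed after the GC and length correction (0.0313), as did its relative Rgs16 (log2 fold change -0.25; 0.026), which did not pass before it (-0.24; 0.0511) and had -0.21 with 6 libraries. Arrb1, beta-arrestin 1, had -0.34 with 6 libraries and -0.33 without Rosa26 gRNA replicate 1, and Gpsm1, an activator of G protein signalling, had 0.25 and 0.19. Neither passed.

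Genes for the receptors' own ligands did not pass. Sst stood at 8.23, 5.53 and 7.66 CPM with the JunD gRNA, against 2.14, 6.32 and 7.09 CPM with the Rosa26 gRNA, and Gal at 4.04, 3.34 and 3.79 CPM with the JunD gRNA, against 2.07, 3.92 and 4.33 CPM with the Rosa26 gRNA, while Gip reached at most 0.826 CPM in any library. Gcg, the precursor of glucagon and GLP-1, was at 676, 677.5 and 645.6 CPM with the JunD gRNA, against 523, 674 and 686 CPM with the Rosa26 gRNA. These values overlapped between the groups for all 4 genes. Of 13 tested genes for ligands and their processing 2 rose and 2 fell, beside 1.45% and 1.4% of all genes. Th, tyrosine hydroxylase of catecholamine synthesis, was at 161, 154 and 156 CPM with the JunD gRNA, against 96.4, 126 and 125 CPM with the Rosa26 gRNA, and rose by 0.33 ± 0.04 (SE; edgeR adjusted p = 8.82e-05), as it did once GC content and length were corrected for (6.28e-06). With 6 libraries its log2 fold change was 0.46 ± 0.11 (0.417). Th passed on 6 libraries in edgeR after the GC and length correction (adjusted p = 0.0405) and with no count filter (0.01). It also passed there in limma-voom with sample weights (adjusted p = 0.00102), but not in DESeq2 or in limma-voom without weights. Dbh, the enzyme that turns dopamine into noradrenaline, was at or below 0.181 CPM. Npy, which encodes neuropeptide Y, was at 1187, 1228 and 1213 CPM with the JunD gRNA, against 502, 1114 and 1107 CPM with the Rosa26 gRNA, where replicate 1 was far below the rest. It rose by 0.13 ± 0.03 (SE; edgeR adjusted p = 0.0307), also after the correction (0.015). With 6 libraries its log2 fold change was over 1.5 times larger, 0.42 ± 0.25, and did not pass (0.459). Iapp, the amylin gene, and Pcsk1 fell. Iapp fell by 0.11 ± 0.03 (0.0382) but not after the correction (0.662), and its log2 fold change with 6 libraries was -0.0064. Over all the signalling lists, counting each gene once, 8 of 173 genes rose and 3 fell without Rosa26 gRNA replicate 1, beside 1.45% and 1.4% of all genes. With 6 libraries and no correction or weights, 0 of 169 were called by edgeR, DESeq2 or limma-voom. These called 0, 67 and 0 of all genes. At an unadjusted p under 0.05 in edgeR there were 24 of the 169, beside 11.9% of all genes.

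**Figure D4:**
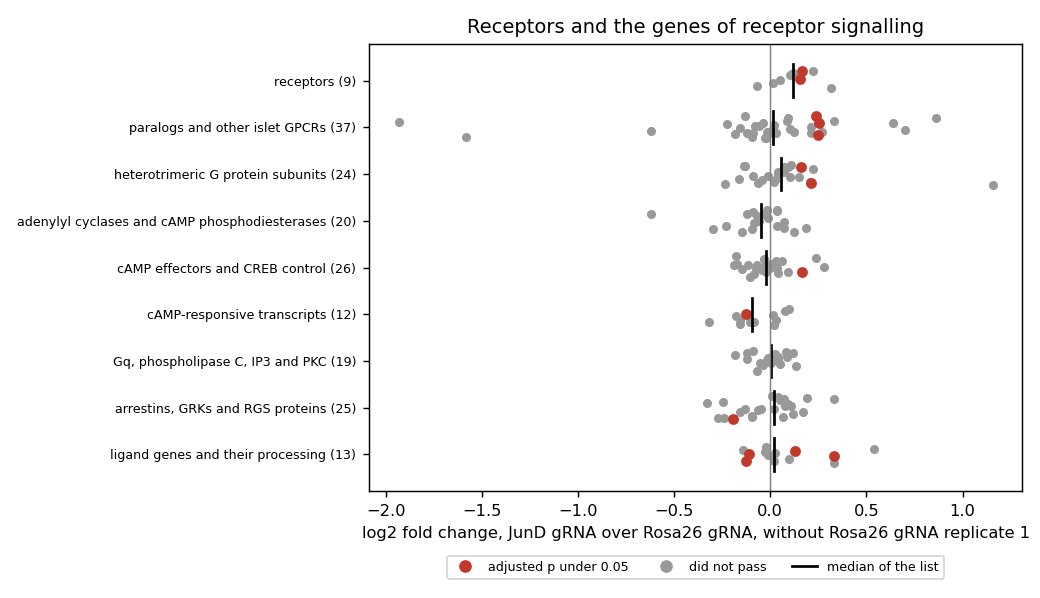
Log2 fold change of each gene, JunD gRNA over Rosa26 gRNA, without Rosa26 gRNA replicate 1 (horizontal axis), for the 9 receptors and the lists of signalling genes, with the number tested in brackets; red points passed at an adjusted p under 0.05 and black bars are medians. The receptors' median lies at 0.12 and that of the cAMP-responsive transcripts at -0.09, and most points in every list did not pass.

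The genes whose level varied most like each receptor were those with the smallest root mean square difference in centred log2 CPM over the 6 libraries, among 11504 genes at 2 CPM or more. For Glp1r these were Capzb, Pfkl and Ank, at 0.0164, 0.0177 and 0.0184, where the median gene stood at 0.150. For Adra2a they were Coro2b, Atp2a3 and Uqcrh, at 0.0154, 0.0169 and 0.0178, and for Sstr3 Rangap1, Snap47 and Ppp1r21. Gipr lay closest to Rps28, Pomp and Repin1, and Galr1 to Hars2, Tpm1 and Aptx. Ffar1 lay closest to Cstf2t, Adcy6 and Ywhab, and Chrm3 to Snx12, Rrp12 and Vash1. The less abundant receptors had looser matches: Gpr119 with Iqsec2, Dnajb5 and Tmem53 from 0.0416, and Gcgr with Gpr45, Fam185a and Plekhj1 from 0.060. Among these 6 libraries, Rosa26 gRNA replicate 1 stood apart for many genes, and its part in the likeness was not tested.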

How the data were processed

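Total RNA of Min6 cells went into 6 Illumina libraries, per the labels' protocols. Each library has 1 deposited table of unnormalized gene counts made by the authors. TopHat2, featureCounts and mm10 are named in the submitters' processing notes. Their versions, the annotation, the strand setting and the handling of multi-mapped reads were not given in the sources used here. Symbols matched 53274 of 53379 identifiers without the version number. Gene models, lengths and GC content came from GENCODE M21 (GRCm38), and none of the 9 receptors shares exon bases with another annotated gene there. Promoters came from RefSeq.

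CPM are counts over the library total. The comparison used edgeR 4.0.16 in R 4.3.3 (TMM, filterByExpr, quasi-likelihood fit on group, two-sided, Benjamini-Hochberg over all genes tested). The SE is the absolute log2 fold change over the square root of the F statistic. The procedure was also run on simulated data. These held no library that stood apart and no trend with GC content or length, so that run does not bear on such features. No 2 libraries of a group agreed within sampling noise (chi-square per degree of freedom at least 3.22). The GC and length correction fitted splines with 5 degrees of freedom to each library's log2 deviations. Other alternatives were DESeq2 1.42.0, limma-voom (limma 3.58.1), other normalizations and filters, a replicate block and each library left out.

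The receptors, lists and tests were chosen with earlier results of these data known. Named genes were all 9 receptors, Jund, per signalling list up to 4 with the smallest p with 6 libraries and up to 6 called ones, and the 3 most alike per receptor (pseudocount 0.5). Paralogs, ligands and Dbh given by level, and the ratios, were chosen after their values were seen.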

Additional observations from a re-analysis of the deposited data

How the results depend on the processing

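With all 6 libraries edgeR called 0 genes, and the count was 67 with DESeq2, 293 with limma-voom and sample weights, 86 with no count filter, 25 with the GC and length correction and 9 with that correction and the replicate block. Leaving out single libraries gave between 0 and 523 genes, between 0 and 2 receptors and between 0 and 11 signalling genes, the highest in each case without Rosa26 gRNA replicate 1. Without that library the GC and length correction, DESeq2 and limma-voom called 576, 488 and 588 genes, 1, 2 and 2 receptors, and 10, 9 and 15 signalling genes. Sample weights called 1 receptor and 5 signalling genes, and no filter and the GC and length correction 1 signalling gene each, which was Th.

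Of 198 values of the receptors under alternatives, 180 kept their direction and side of the threshold. Glp1r passed at 0.168 (weights), 0.166 (without Rosa26 gRNA replicate 1; between 0.166 and 0.193 as single libraries were left out), 0.200 (that with GC), 0.168 (with DESeq2) and 0.166 (with limma-voom). Adra2a passed at 0.152, and at 0.154 with DESeq2 and 0.153 with limma-voom, without that library, and lay between 0.152 and 0.259 as single libraries were left out. The sign of Ffar1 turned to 0.0126 (weights), and without that library to 0.0147, 0.0272 (GC), 0.01666 (DESeq2) and 0.0142 (limma-voom); that of Chrm3 turned to 0.0396, 0.0483, 0.0692, 0.0503 and 0.0483 in the same order. With single libraries left out Ffar1 lay between -0.0489 and 0.0147 and Chrm3 between -0.0721 and 0.0483. With the GC and length correction, without and with the block, Pcsk1 turned to 0.0223 and 0.0241, Dgkz to -0.00234 and -0.00178, Unc13b to 0.0268 and 0.0266, and Iapp to 0.119 and 0.137. Iapp also turned to 0.00164 (limma-voom), 0.003095 (no filter) and 0.001756 (replicate block), and lay between -0.111 and 0.0764 as single libraries were left out. The cause was not tested. Same-numbered libraries had correlations of 0.055, -0.039 and 0.074, and differently numbered ones lay between -0.101 and 0.069. With 3 libraries centred on each group's mean, these values cannot decide whether the numbers mark pairs. The replicate block called 0 genes in edgeR. The lowest counts, those of Gcgr, limit its precision.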
